A study of Mus musculus with 9 samples.

Results

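The Dppa genes (developmental pluripotency associated) described here are Dppa2, Dppa3, Dppa4 and Dppa5a, 4 of the 35896 genes with a transcript in the data. They were chosen by symbol, and the deposited transcript values were summed per gene. Poly-A RNA was sequenced from E14, one line of mouse embryonic stem cells grown on gelatin in medium with serum, in 9 libraries that fall into 3 groups of 3. Control +LIF2i cells stayed in self-renewal medium with the cytokine LIF, the MEK inhibitor PD0325901 at 1 µM and the glycogen synthase kinase 3β inhibitor CHIR99021 at 1 µM, together called LIF2i. Control -LIF2i cells were kept without these agents for 72 h. CK666 -LIF2i cells were kept without them for 72 h and received CK666, an inhibitor of the actin-nucleating Arp2/3 complex, at 80 µM from the time of withdrawal. CK666 came from a stock in DMSO, and the labels do not say whether the controls received DMSO, so the drug and its solvent cannot be told apart. The study asks what Arp2/3 activity contributes as these cells leave self-renewal. The design text calls the replicates biological and paired. The labels do not name the cultures behind them, and p-values measure the spread between these libraries.

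The Dppa genes were grouped by their expression in pluripotent cells and are not one protein family. Dppa2 and Dppa4 are SAP-domain chromatin proteins that act together, bind promoters of developmental and germline genes, and can switch on genes of the two-cell embryo such as Dux and Zscan4. Dppa3, also called Stella or PGC7, is a maternal factor that keeps the methylation cofactor Uhrf1 off chromatin and protects the maternal genome from demethylation. Dppa5a, also called Esg1, is a KH-domain RNA-binding protein of embryonic stem cells and germ cells.

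In GRCm38 coordinates with GENCODE M21 annotation, Dppa4 (ENSMUSG00000058550) lies at chr16:48283733-48294237 and Dppa2 (ENSMUSG00000072419) at chr16:48303908-48319723, both on the plus strand, with starts 20175 bp apart. Dppa3 (ENSMUSG00000046323) lies at chr6:122626410-122630272 on the plus strand. Dppa5a (ENSMUSG00000060461) lies at chr9:78367052-78368177 on the minus strand. No exonic base of the 4 genes is shared with another annotated gene, but each has near copies elsewhere, most of them processed pseudogenes. Reads from such copies could be divided with the member, so the coding stretch that separates each member from a close copy is shown. Each window has 60 bases, is written 5′ to 3′ on the strand of the transcript, and was read from GENCODE M21 transcript sequences. Capitals mark the bases that differ within the pair.

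The Dppa5a window covers coding bases 194 to 253, at chr9:78367766-78367825. It differs from the pseudogene Dppa5b at 5 bases, and over 297 aligned coding bases there were 9 differences.
Dppa5a: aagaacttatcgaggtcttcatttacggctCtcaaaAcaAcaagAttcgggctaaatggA
Dppa5b: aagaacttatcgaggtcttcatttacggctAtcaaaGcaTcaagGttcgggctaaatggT

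The Dppa2 window covers coding bases 62 to 121, at chr16:48311603-48311662. It differs from the processed pseudogene Gm9788 at 3 bases, and over 906 coding bases there were 6 differences.
Dppa2: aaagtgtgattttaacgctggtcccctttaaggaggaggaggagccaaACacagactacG
Gm9788: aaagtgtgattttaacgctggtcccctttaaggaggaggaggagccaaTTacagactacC

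The Dppa4 window covers the first 60 coding bases, which lie in more than 1 exon between chr16:48283818 and 48287913. It differs from the processed pseudogene Gm14058 at 2 bases, and over 735 aligned coding bases there were 8 differences.
Dppa4: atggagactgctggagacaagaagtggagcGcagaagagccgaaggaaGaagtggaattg
Gm14058: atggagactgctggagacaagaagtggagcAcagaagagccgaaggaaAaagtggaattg

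The Dppa3 window covers coding bases 118 to 177, at chr6:122628606-122628665. It differs from the pseudogene Dppa3-ps at 3 bases, and over 451 aligned coding bases there were 8 differences.
Dppa3: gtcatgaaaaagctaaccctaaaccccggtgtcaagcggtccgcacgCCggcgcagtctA
Dppa3-ps: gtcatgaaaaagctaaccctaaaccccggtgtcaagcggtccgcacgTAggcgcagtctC

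Few counts had been placed on the copies. There were 24 transcripts of other genes at least 85% identical to a member over the aligned stretch, of which 23 were in the deposited tables. The summed estimated counts of the copies reached at most 1.8 in a library for Dppa2, 6.6 for Dppa4 and 23 for Dppa5a. Copies of Dppa3 were listed at 0 in all libraries. At most these were 0.89% of the counts of copies and member together, for Dppa4, and 0.095% for Dppa5a. How many reads of a copy were placed on the member was not tested. The transcripts of Dppa5b and its neighbour Dppa5c differ at 0 bases, and both carried the same counts in every library. Dppa1, the remaining annotated Dppa gene, had 33 estimated counts in the replicate 1 library with LIF2i and at most 2 in the other libraries.

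The libraries held 16894327 to 22550952 estimated counts, and the floor used for detection, 3 counts in a library, amounted to 0.133 to 0.178 on the CPM scale. CPM are read counts made comparable between libraries by TMM scaling. That floor covers counting error only, while the intervals given with log2 fold changes include the spread between libraries. The libraries showed the pluripotency factor Pou5f1 at a mean of 1336 ± 509 CPM with LIF2i (SD, n = 3), 1085 ± 84.8 CPM without LIF2i and 1176 ± 77.6 CPM with CK666. The replicate 1 libraries stood apart in each group. They had 15690, 17295 and 17605 genes above 0, against 18166 to 18749 in replicates 2 and 3, and they were low in short transcripts. The members' changes are therefore given with all 9 libraries and without replicate 1.

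Dppa5a was by far the most abundant member in every library. On the TPM scale, which allows for transcript length, its levels with LIF2i were 1389, 7556 and 6753 TPM in replicates 1, 2 and 3. Without LIF2i they were 1285, 2635 and 2325 TPM, and with CK666 1676, 4162 and 3115 TPM. Dppa5a thus held between 92.6% and 99% of the summed TPM of the 4 genes. Among all genes it ranked number 6 in the replicate 2 and 3 libraries with LIF2i and between 33 and 110 in the others.

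Dppa4, the chromatin partner of Dppa2, lay between 41.4 and 92.3 TPM. Dppa2 lay between 13.9 and 65.2 TPM. The TPM of Dppa4 was 0.851 to 1.01 times that of Dppa2 in the replicate 1 libraries and 1.89 to 4.26 times in replicates 2 and 3, so the order of these 2 levels was not the same in all libraries. Dppa3 was the least abundant member, at 0.546 to 4.4 TPM, which rested on 4 to 41 estimated counts in a library. Its levels were above the floor of 3 counts in every library but too thinly counted to order the groups. The order Dppa5a, then Dppa2 and Dppa4, then Dppa3 held in all 9 libraries.

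**Figure D1:**
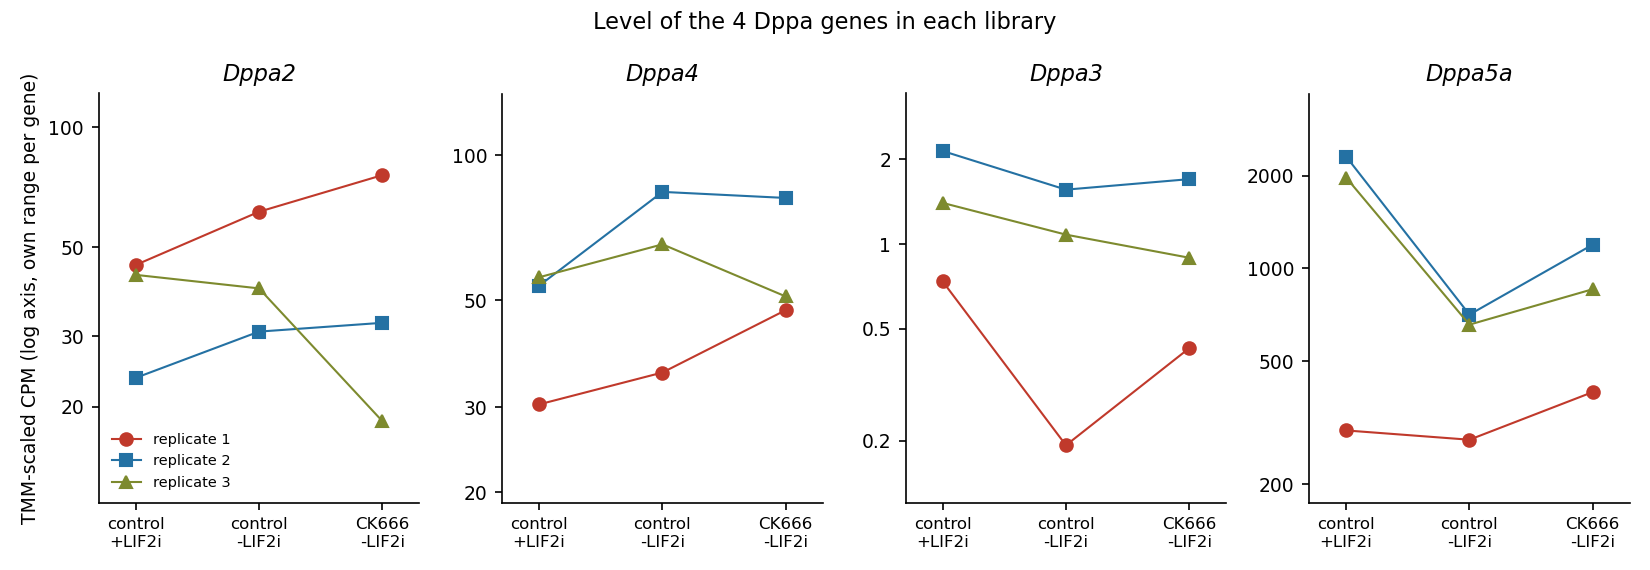
Level of Dppa2, Dppa4, Dppa3 and Dppa5a in each of the 9 libraries, in TMM-scaled CPM on a log axis with its own range for each gene. Points of one colour and line are libraries with the same replicate number. Dppa5a is lower without LIF2i than with it in replicates 2 and 3, where it goes from 2304 and 1970 to 709 and 658 CPM, while in replicate 1 it stays near 300 CPM (299 and 279).

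All 4 members differed between replicate 1 and the others. In the same fit, replicate 1 against the mean of replicates 2 and 3 gave a log2 difference of -1.76 for Dppa5a (SE 0.28, adjusted p = 0.0018 by edgeR's quasi-likelihood test) and -1.72 for Dppa3 (SE 0.51, adjusted p = 0.026). Dppa4 differed by -0.78 (SE 0.16, adjusted p = 0.0048). Dppa2 differed the other way, by 0.97 (SE 0.27, adjusted p = 0.021). So 4 of 4 members were called, against 36.7% of the 14648 genes tested. Dppa4 and Dppa5a passed in 17 of 17 alternatives. Dppa3 passed in 11, and in 4 of the 9 that left out 1 library, with values from -2.03 to -1.34 there and an adjusted p of up to 0.093. With transcript length offsets it was at -1.55 (adjusted p = 0.066). Dppa2 passed in 14, and not with no filter on low counts (0.96, adjusted p = 0.078), without the CK666 library of replicate 1 (0.67, adjusted p = 0.12) or without the control -LIF2i library of replicate 2 (0.96, adjusted p = 0.052). This comparison was added after the data had been seen.

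Transcript length moved with the replicate number too. The 525 tested genes with transcripts under 700 bases had a median log2 difference of -1.21 between replicate 1 and the others, the 869 genes of 700 to 1000 bases one of -0.80, and the 2643 genes of 4000 bases or more one of 0.27. Dppa5a, with a transcript of 619 bases, and Dppa3, with 816 bases weighted by TPM, are shorter than most tested genes. Only 2.42% of tested genes are shorter than Dppa5a and 5.56% are shorter than Dppa3. Dppa4 has 1439 bases and Dppa2 has 2022 bases. The difference of Dppa2 was above that of 94.7% of tested genes, although the median for 2000 to 4000 bases was 0.10. The part of length in the members' differences was not tested.

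**Figure D2:**
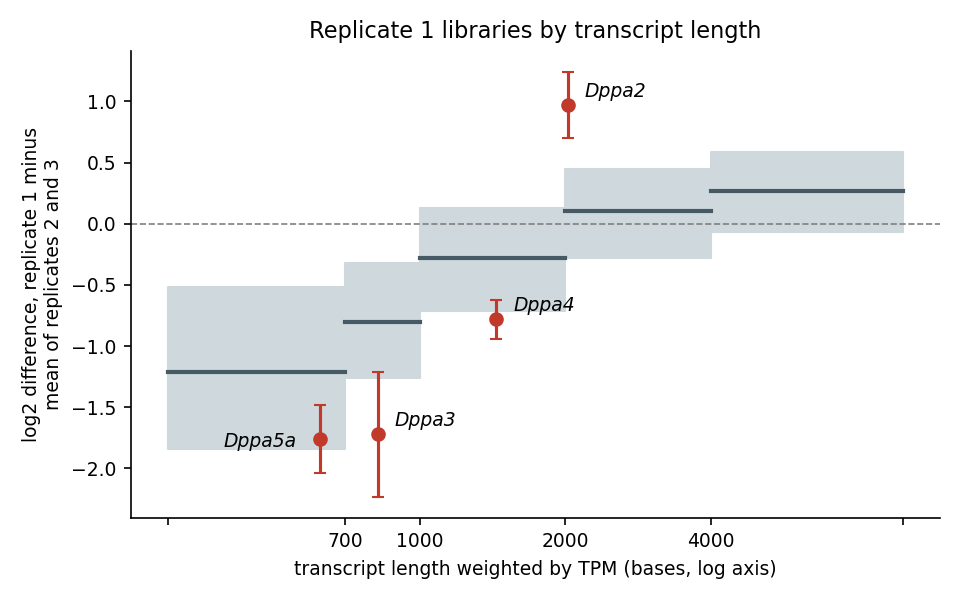
Log2 difference between replicate 1 and the mean of replicates 2 and 3 (vertical axis) against transcript length in bases (log axis). Grey boxes span the quartiles of all tested genes in 5 length classes with the median as a dark line, and red points with SE bars are the 4 Dppa genes. Dppa5a lies inside the box of its class, Dppa3 and Dppa4 lie under the boxes of theirs, and Dppa2 lies above.

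Dppa5a fell on LIF2i withdrawal and was the 1 member of 4 that passed the test, where 40.7% of all tested genes did, 19.7% lower and 21.1% higher. Its levels with LIF2i were 299, 2304 and 1970 CPM in replicates 1, 2 and 3, and without LIF2i 279, 709 and 658 CPM. The level without LIF2i was 0.93, 0.31 and 0.33 times that with LIF2i in the 3 pairs, lower in 3 of 3 but close to equal in replicate 1. The group ranges overlapped, since the replicate 1 library with LIF2i lay under the replicate 2 and 3 libraries without it. The log2 fold change was -1.19 (SE 0.30, 95% interval -1.88 to -0.50, adjusted p = 0.013, edgeR with the replicate number as a block).

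The size of that change differed with and without replicate 1. Without the replicate 1 libraries the log2 fold change of Dppa5a was -1.62 (SE 0.11, adjusted p = 7.9e-06), where 44.6% of genes were called, 21.4% lower. Without the replicate block it was -1.47 with an adjusted p of 0.16, where 24.0% of genes were called. The call was also lost without replicate 2 (-0.92, adjusted p = 0.15) or replicate 3 (-0.95, adjusted p = 0.12). In the replicate 1 pair, genes with transcripts under 700 bases were higher without LIF2i than with it by a median log2 ratio of 0.31, against -0.17 and 0.02 in the replicate 2 and 3 pairs. In a bulk sample, fewer cells with Dppa5a and less Dppa5a RNA per cell cannot be told apart.

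The chromatin pair did not pass the test for withdrawal, and its values were higher rather than lower without LIF2i in most pairs. Dppa4 had 30.4, 53.6 and 55.8 CPM with LIF2i and 35.4, 83.9 and 65.3 CPM without. It was higher in 3 of 3 pairs, by 1.17, 1.56 and 1.17 times, with overlapping groups. Its log2 fold change was 0.36 (SE 0.18, 95% interval -0.03 to 0.76, adjusted p = 0.13), and 0.44 without replicate 1 (adjusted p = 0.056).

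Dppa2 had 45.2, 23.6 and 42.7 CPM with LIF2i and 61.4, 30.8 and 39.5 CPM without. It was higher in 2 of 3 pairs, and the groups overlapped. The log2 fold change was 0.20 (SE 0.31, 95% interval -0.51 to 0.92, adjusted p = 0.65) and 0.11 without replicate 1 (adjusted p = 0.84). The interval holds both a fall of 0.51 and a rise of 0.92 on the log2 scale, so a moderate change in either direction was not detectable here.

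Dppa3, the maternal factor, had 15, 41 and 23 estimated counts with LIF2i, or 0.737, 2.14 and 1.40 CPM. Without LIF2i it had 4, 30 and 20 counts, or 0.193, 1.56 and 1.08 CPM. It was lower in 3 of 3 pairs, at 0.26, 0.73 and 0.77 times, with overlapping groups. The log2 fold change of -0.79 (SE 0.54, 95% interval -2.0 to 0.42, adjusted p = 0.28) did not pass the test, and without replicate 1 it was -0.40 (adjusted p = 0.52). At these counts neither a loss by 4 times nor no change was outside the interval.

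Under CK666 none of the 4 members passed the test against control cells without LIF2i, where 2.05% of all genes did, 1.15% higher and 0.894% lower. By edgeR, 0 of 4 also had an unadjusted p under 0.05, where 2890 of 14648 genes did. By DESeq2 0 of 4 were called, where 1136 of 14648 genes were. With 4 members, these counts cannot show a lack of response. Dppa5a came closest: its levels without LIF2i were 279, 709 and 658 CPM, and with CK666 398, 1195 and 857 CPM. It was higher with CK666 in 3 of 3 pairs, by 1.43, 1.69 and 1.30 times, although the groups overlapped. The log2 fold change was 0.55 (SE 0.30, 95% interval -0.12 to 1.22, adjusted p = 0.35).

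The Dppa5a difference under CK666 changed with single replicate 1 libraries, to 0.28 without the CK666 library of replicate 1 and to 0.81 without the control -LIF2i library of replicate 1. Without the replicate 1 libraries the log2 fold change was 0.56 with an SE of 0.11 and passed the test (adjusted p = 0.014), where 11.9% of all genes were called, 6.19% higher and 5.73% lower. It also passed without the replicate 1 library with LIF2i alone (0.55, adjusted p = 0.0085) and in a fit of the -LIF2i groups only (0.53, adjusted p = 0.02). Over the 22 alternatives the adjusted p ranged from 0.0085 to 0.93 and passed in 3.

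The CK666 ratios of Dppa2 differed between the replicate numbers. It had 61.4, 30.8 and 39.5 CPM without LIF2i and 75.8, 32.4 and 18.4 CPM with CK666. The CK666 library of replicate 3 was the lowest of all 9 and that of replicate 1 the highest. The ratios were 1.23, 1.05 and 0.47, and the log2 fold change was -0.15 (SE 0.32, 95% interval -0.87 to 0.57, adjusted p = 0.84). It was -0.45 without replicate 1 (adjusted p = 0.5). With single libraries left out it ranged from -0.51, without the CK666 library of replicate 1, to 0.28, without that of replicate 3, and passed in none of the 22 alternatives.

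Dppa4 had 47.7, 81.5 and 50.9 CPM with CK666, inside the range of the controls without LIF2i, and was higher in 1 of 3 pairs. Its log2 fold change was 0.02 (SE 0.18, 95% interval -0.38 to 0.42, adjusted p = 0.97) and -0.20 without replicate 1 (adjusted p = 0.47). Its value under CK666 was near 0 and had no stable sign. Dppa3 had 9, 30 and 16 counts with CK666, or 0.427, 1.70 and 0.894 CPM. Its log2 fold change of 0.20 (SE 0.54, adjusted p = 0.88) was within its error, with overlapping groups, and it was -0.064 without replicate 1.

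Against self-renewing controls, CK666 cells had lower Dppa5a in replicates 2 and 3, at 0.52 and 0.43 times, and higher in replicate 1, at 1.33 times. None of the 4 members passed this test, in which 36.9% of all genes did. By edgeR, 0 of 4 had an unadjusted p under 0.05, where 6822 of 14648 genes did. DESeq2 called Dppa5a alone of the members (-0.64, adjusted p = 0.043), where it called 5889 of 14648 genes. The edgeR log2 fold change of Dppa5a was -0.64 (SE 0.30, 95% interval -1.33 to 0.04, adjusted p = 0.13). Without replicate 1 it was -1.06 (SE 0.11, adjusted p = 9.3e-05), where 41.5% of genes were called.

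For Dppa4 the log2 fold change between CK666 and self-renewing cells was 0.38 (SE 0.18, adjusted p = 0.12). It was 0.24 without replicate 1 (adjusted p = 0.27), and passed in 1 of 22 alternatives, without the CK666 library of replicate 3 (0.59, adjusted p = 0.037). For Dppa2 it was 0.05 (SE 0.32, adjusted p = 0.92), with ratios of 1.68, 1.37 and 0.43 in the pairs, and -0.34 without replicate 1 (adjusted p = 0.53). For Dppa3 it was -0.58 (SE 0.53, adjusted p = 0.42), with Dppa3 lower in 3 of 3 pairs, and -0.47 without replicate 1 (adjusted p = 0.46). The 3 comparisons share libraries: the controls without LIF2i enter both withdrawal and CK666, so their values stand side by side here and are not independent of each other.

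**Figure D3:**
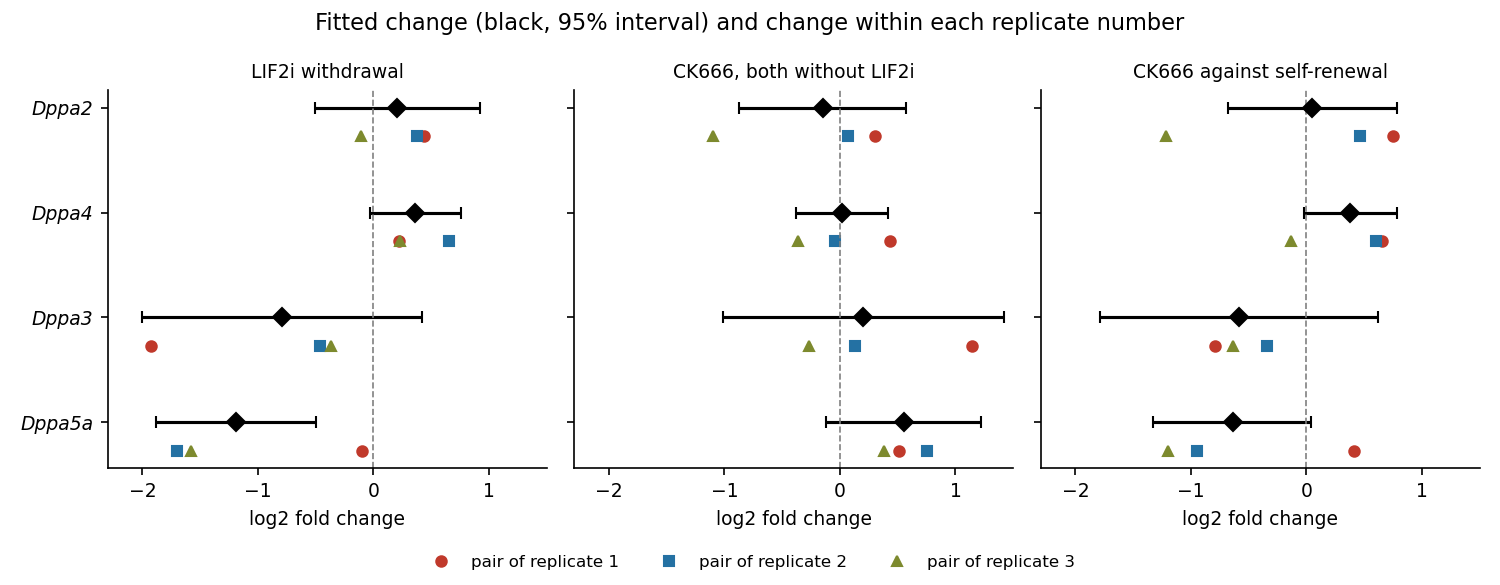
Log2 fold changes of the 4 Dppa genes for LIF2i withdrawal, for CK666 against control without LIF2i, and for CK666 against self-renewal. Black diamonds with bars are the fitted values with 95% intervals, and coloured points are the log2 ratios within each replicate number. The interval of Dppa5a on withdrawal, -1.88 to -0.50, is the only one of the 12 that lies on one side of 0.

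KH-domain genes related to Dppa5a and their partners in the oocyte were listed together. Of these 7 genes, 3 passed the expression filter and 3 were called lower on withdrawal, where 19.7% of all tested genes were. Khdc3 and Ooep have a KH domain and Tle6 has none. The median log2 fold change was -2.93 beside 0.01 over all genes tested. Khdc3, a component of the oocyte's subcortical maternal complex, fell from 27.4 ± 13.7 to 0.399 ± 0.179 CPM. It entered the test through the group with LIF2i, so its call and its part in the counts of this list are a description. Ooep of the same complex fell from 44.1 ± 15 to 5.74 ± 1.65 CPM (log2 -2.93, SE 0.21, adjusted p = 1.3e-05). Tle6, their partner without a KH domain, fell from 6.13 ± 2.07 to 1.73 ± 0.673 CPM (log2 -1.88, SE 0.38, adjusted p = 0.0039). None of these 3 passed for CK666 by edgeR, and 3 of 3 also fell on withdrawal without replicate 1, where 21.4% of all genes did.

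Genes that Dppa2 and Dppa4 can activate were at low levels in all groups. Of 22 listed two-cell-like genes and targets, 9 were tested, and 3 were called higher and 1 lower on withdrawal, a share near the 40.7% of all tested genes. Zscan4f, a two-cell embryo gene, rose from 0.737 ± 0.144 to 3.31 ± 1.1 CPM (log2 2.05, SE 0.54, adjusted p = 0.014). The other calls were Zscan4a, with a mean of 0.264 CPM with LIF2i and 1.35 CPM without, and the deubiquitinase gene Usp17le, with 0.103 and 1.39 CPM. Both were near or under the floor with LIF2i and entered the test through groups where they were higher, so these counts describe the list and support nothing. The cardiac homeobox gene Nkx2-5, the gene called lower, had 1.07 ± 0.301 CPM with LIF2i and was near the floor without, at 0.211 ± 0.165 CPM, so no fold is given. Without replicate 1 there were 5 higher and 2 lower calls, and Zscan4a was not among them (adjusted p = 0.051). In that setting 44.6% of all tested genes were called, a lower share than in this list of genes at low levels. The Zscan4 and Usp17l genes have near-identical copies, so the division of reads among them is uncertain.

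With CK666 the Zscan4f level was 0.932 ± 0.719 CPM, and its log2 fold change against control without LIF2i was -1.93 (SE 0.54, adjusted p = 0.091). None of the 9 tested genes of this list passed for CK666 by edgeR, with or without replicate 1. The 8 two-cell-like markers summed to 1.46 to 2.6 CPM with LIF2i, 4.58 to 10 CPM without and 1.14 to 4.13 CPM with CK666. Tcstv1 and Tcstv3 were at or under 3 counts in every library.

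The methylation machinery that Dppa3 acts on changed in both directions on withdrawal: 5 of 12 tested genes rose and 4 fell, with a median of 0.11, where 21.1% of all tested genes rose and 19.7% fell. The de novo methyltransferase Dnmt3b rose from 52.4 ± 15.2 to 1331 ± 818 CPM (log2 4.51, SE 0.26, adjusted p = 5.3e-06), and Dnmt3a rose by log2 1.8 (adjusted p = 0.0012). The demethylases Tet2 and Tet1 had log2 fold changes of -4.25 (adjusted p = 0.00028) and -1.65 (adjusted p = 0.00072). Uhrf1, the protein that Dppa3 restrains, fell from 726 ± 67.2 to 344 ± 42.9 CPM (log2 -1.08, adjusted p = 0.00012), and the maintenance methyltransferase Dnmt1 fell by 0.93 (adjusted p = 0.0019). Uhrf1 and Dnmt1 were singled out after their values were seen. With CK666 Uhrf2, a relative of Uhrf1, rose by log2 0.61 (adjusted p = 0.047) and the demethylase Tet3 by 0.71 (adjusted p = 0.049). Without the block no gene was called for CK666 by edgeR (0 of 14648, with 1251 at an unadjusted p under 0.05).

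Chromatin complexes that meet Dppa2 and Dppa4 at bivalent promoters had 1 gene higher and 4 lower of 10 on withdrawal, with a median of -0.29. These 5 calls are a share near the 40.7% of all tested genes. The Polycomb genes Mtf2, Suz12 and Ezh2 had log2 fold changes of -1.21 (adjusted p = 0.00077), -0.71 (adjusted p = 0.00088) and -0.61 (adjusted p = 0.0086). The H3K4 methyltransferase gene Kmt2a rose by log2 0.44 (adjusted p = 0.033). None of the 10 passed for CK666 by edgeR.

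Beside these, Dppa5a and the pluripotency reference genes can be set side by side for withdrawal. Of 22 reference genes 14 fell and 6 rose, with a median of -1.97, where 19.7% of all tested genes fell and 21.1% rose. The naive factors Klf4 and Tfcp2l1 had log2 fold changes of -5.80 and -5.68 (adjusted p = 5.7e-06 and 0.00028). Prdm14, another, had a mean of 48.6 CPM with LIF2i and was near the floor without, at 0.211 CPM, so no fold is given. The formative marker Fgf5 was near the floor with LIF2i, at 0.0202 ± 0.0351 CPM, and at 47.4 ± 11.8 CPM without. Prdm14 and Fgf5 entered the test through groups where they were high, so their part in the withdrawal counts is a description. With CK666 the T-box factor Tbx3 rose (log2 3.31, adjusted p = 0.031) and Fgf5 fell to 5.87 ± 4.25 CPM (adjusted p = 0.021). Without replicate 1 the CK666 calls in this list were 2 higher and 6 lower, where 11.9% of all genes were called, and the withdrawal calls 6 higher and 15 lower, where 44.6% were.

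In a list of 14 further maternal and germline genes, which leaves out Khdc3, Ooep, Tle6 and Morc1 that fell, 8 were tested and 4 were called higher on withdrawal, with 0 lower by edgeR, a share of calls near the 40.7% of all tested genes. The piRNA factor Mael rose by log2 1.38 (adjusted p = 0.00065), the synaptonemal gene Sycp3 by 1.63 (adjusted p = 0.0012) and the RNA helicase gene Ddx4 by 0.83 (adjusted p = 0.0046). The oocyte factor Figla was listed at 0 in the libraries with LIF2i and had 1.66 ± 0.444 CPM without. It passed the filter only through the groups where it was present, so its call is a description. Mael rose further with CK666, from 21.3 ± 8.78 to 43.3 ± 15.4 CPM (log2 1.05, SE 0.19, adjusted p = 0.034). The median of the pluripotency list does not depend on Fgf5, which stays above it at the floor.

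The counts in the other lists also depended on the setting. Without replicate 1, 44.6% of all genes were called on withdrawal, 21.4% lower. There were then 4 higher and 4 lower calls among the 12 methylation genes. The 10 chromatin genes had 2 and 4, and the 8 germline genes 4 and 0 by edgeR. Without the replicate block the calls in these lists were 3 and 4, 0 and 3, and 3 and 0, where 24.0% of all genes were called. For CK666 without replicate 1, 11.9% of all genes were called, 6.19% higher. There were then 3 higher and 1 lower call among the methylation genes and 2 higher among the germline genes. Without the block on withdrawal, 8 of the 18 tested genes near a member fell and 0 rose by edgeR. Khdc3, Ooep and Tle6 also fell, where 24.0% of all genes were called.

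Markers of other cell types are given by their summed levels, which were not tested. The 8 primordial germ cell markers summed to 557 to 573 CPM with LIF2i, 57.4 to 157 CPM without and 78.6 to 138 CPM with CK666, and none was at or under 3 counts throughout. Kit and Ifitm1 were the largest parts with LIF2i, at means of 230 and 126 CPM, against 24.2 and 28.8 CPM without. Ifitm3 had 31.7 and 27.9 CPM and Dnd1 11.4 and 11.9 CPM, and neither was called on withdrawal. The sum of the 8 primitive endoderm markers reached at most 354 CPM with LIF2i, 69.5 CPM without and 70.1 CPM with CK666. With LIF2i it was mostly the laminin gene Lama1, which fell from a mean of 247 to 14 CPM on withdrawal, while the adaptor gene Dab2 rose from 2.93 to 21.3 CPM (log2 2.80) and Gata6 was at 0.945 and 0.96 CPM. The 8 trophoblast markers summed to 126 to 148, 163 to 399 and 117 to 380 CPM. Of these, the keratin genes Krt18 and Krt8 rose on withdrawal (log2 4.49 and 1.88), and Tfap2c fell (log2 -4.30). These marker genes were picked out after their values were seen. The 7 mesoderm markers summed to 8.75 to 15.8, 8.88 to 19.1 and 4.69 to 9.15 CPM, and the 7 neural markers to 119 to 250, 173 to 226 and 85.2 to 177 CPM. The 7 fibroblast markers summed to 6.14 to 9.39, 29.4 to 33 and 17.4 to 26.7 CPM, with Lum at or under 3 counts in every library. Without LIF2i most of this sum was Thy1, at a mean of 21.2 CPM, also picked out after its value was seen. The part of other cell types in the change of Dppa5a was not tested.

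Several genes around the members fell on withdrawal. Of 27 protein-coding genes that start within 250 kb of a member, members left out, 18 were tested, 9 fell and 1 rose, with a median of -0.85, where 40.7% of all tested genes were called and 19.7% lower. Beside Dppa4 and Dppa2, which were not called, Morc1, a germline chromatin ATPase that starts 127329 bp from Dppa2, fell from 126 ± 23.9 to 8.84 ± 5.62 CPM (log2 -4.01, SE 0.28, adjusted p = 1.3e-05). Around Dppa3, Nanog at 81079 bp fell from 812 ± 127 to 190 ± 59.8 CPM (log2 -2.12, SE 0.20, adjusted p = 5.2e-05), and the cytidine deaminase gene Apobec1 fell by 1.61 (adjusted p = 0.0013). The growth factor gene Gdf3, which starts at an offset of -16323 bp from Dppa3, had a log2 fold change of 0.05 (SE 0.14, adjusted p = 0.79).

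Around Dppa5a, 4 of 8 tested genes fell and 0 rose by edgeR, a share of calls near the 40.7% of all tested genes. These were Ooep at 10548 bp, the helicase gene Ddx43 (log2 -1.72, adjusted p = 0.0079), the DNA sensor gene Cgas (log2 -2.34, adjusted p = 0.0022) and the glutathione transferase gene Gsta4 (log2 -0.88, adjusted p = 0.0019). The translation factor gene Eef1a1 and the tRNA modification gene Mto1 had log2 fold changes of -0.23 and 0.00 and were not called. None of the 18 neighbours passed for CK666 by edgeR with all libraries. Without replicate 1, 4 of them rose, where 6.19% of all genes did: Apobec1 (1.16), Slc17a5 (0.75), Nanog (0.66) and Rimklb (0.57). On withdrawal there were then 10 lower calls and 1 higher, where 44.6% of all genes were called, 21.4% lower.

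**Figure D4:**
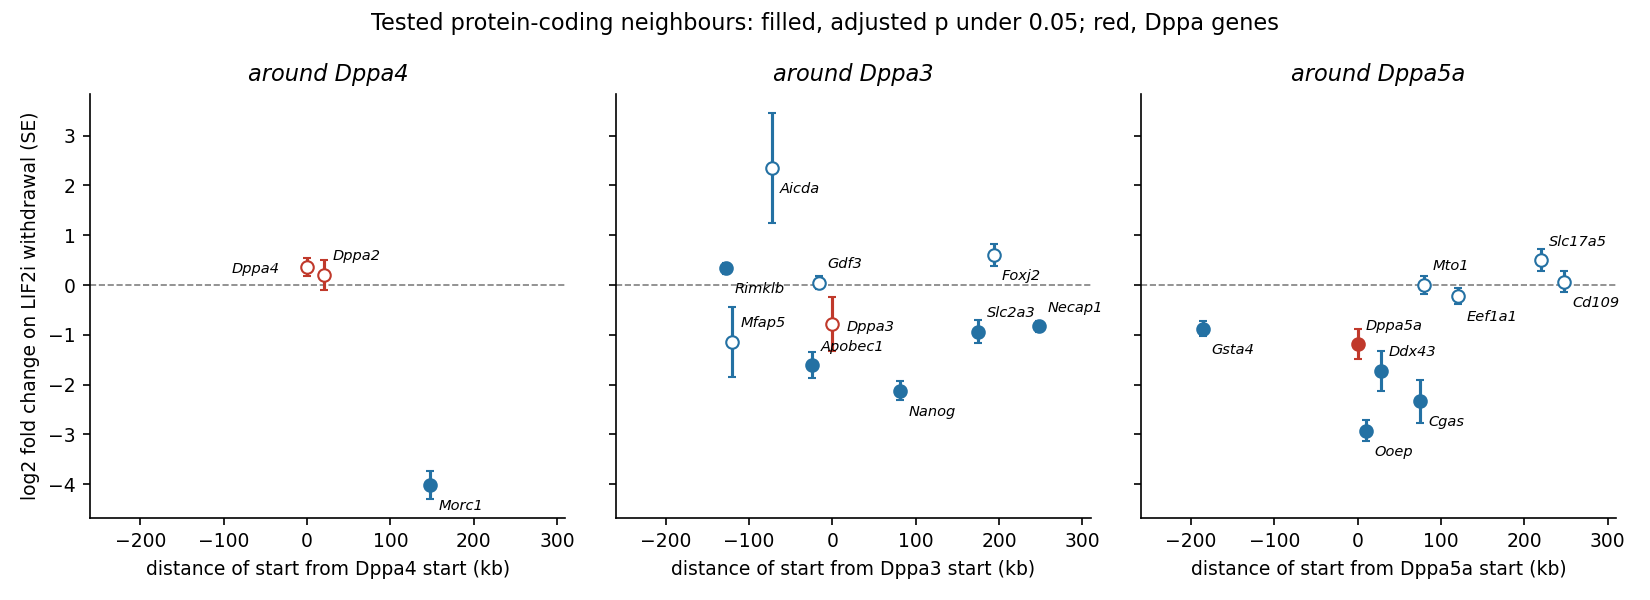
Log2 fold change on LIF2i withdrawal (bars are SE) of tested protein-coding genes against the distance of their start from that of Dppa4, Dppa3 or Dppa5a in kb. Filled points passed the test, and red points are Dppa genes. Of the Dppa genes only Dppa5a is filled, and Morc1, Nanog and Ooep lie furthest down in the 3 panels.

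Within the genes, reads concentrated on one transcript each for Dppa4, Dppa3 and Dppa5a. The Dppa4 transcript of 1479 bases carried 92.2% to 100% of the TPM of Dppa4. Dppa5a has 1 annotated transcript. All Dppa3 counts were on the transcript of 833 bases, except in the replicate 1 library with LIF2i, where all 15 were on the shorter transcript of 691 bases, which starts further downstream. The longer Dppa2 transcript, of 2447 bases, which starts upstream of the other, took 2.94%, 12.4% and 27% of the TPM of Dppa2 in the libraries with LIF2i, 15.7% to 23.6% without and 8.52% to 14% with CK666. The CK666 shares lay under those of the controls without LIF2i, and both overlapped the shares with LIF2i. This difference was not tested.

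Across the 9 libraries, log2 CPM of Dppa3 and Dppa5a had a Pearson r of 0.83, and 0.42 after removing the means of each replicate number. Dppa3 and Dppa4 had 0.68 and then -0.30, and Dppa4 and Dppa5a 0.57 and then -0.41. Dppa2 had negative r with the other members as measured, -0.41 with Dppa4, -0.69 with Dppa3 and -0.61 with Dppa5a. After removing these means they were 0.70, -0.04 and 0.10. These values describe 9 libraries in 3 groups that share replicate numbers. Among 9498 protein-coding genes whose log2 CPM averaged 3 or more, the 5 most like Dppa5a were Ndufb5, Sirt3, Mrpl52, Sap30l and Cox6a1, with r from 0.98 to 0.99. For Dppa2 they were Mrpl37, Tomm40, Dis3, Recql4 and Mettl16 (0.92 to 0.93), for Dppa4 B9d1, Wee1, Mtfmt, Ssu72 and Dynlt1f (0.92 to 0.95), and for Dppa3 Igbp1, Dynlt1a, Pdlim1, Frs3 and Rabepk (0.95 to 0.96). After removing the replicate-number means, r was 0.98 to 0.99 for the genes most like Dppa5a and 0.74 to 0.95 for those of the other members.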

How the data were processed

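Transcript abundance was measured by poly-A RNA-seq in 9 libraries. Each deposited table lists 119414 transcripts, with columns for length, effective length, estimated counts and TPM per the file headers. The deposited estimated counts are not normalised, and the deposited TPM values are scaled within each library. The submitters' processing notes name FastQC, cutadapt 1.8.1, kallisto and sleuth, and the builds mm10 and GRCh38, without roles. The transcript release and the use of strand are not given in the sources used here.

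The GENCODE M21 annotation (GRCm38) gave the gene of each transcript and held 116640 of the identifiers (97.7%). Unassigned transcripts held 0.895% to 1.08% of counts and were left out. Estimated counts were summed per gene and rounded. Genes passing filterByExpr (14648) entered edgeR 4.0.16 under R 4.3.3, with TMM scaling and the robust quasi-likelihood test, with group and replicate number as terms over all 9 libraries. Calls used a p under 0.05 after Benjamini-Hochberg adjustment across every tested gene. SE and 95% intervals were derived from the test statistic. CPM are TMM-scaled and given as mean ± SD, and log2 CPM used a prior count of 2. The fit was tested on simulated counts.

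The design text calls the replicates paired, and deviations of same-numbered libraries from their group means had r of 0.30 to 0.65 (median 0.41), against -0.53 to 0.29 for different numbers. The alternatives were a fit without this block, other scalings (DESeq2 size factors, library totals, transcript length offsets), no filter, DESeq2 1.42.0, voom and log2 TPM with limma 3.58.1, only the groups compared, and each library or replicate number left out. Lists without replicate 1 and replicate 1 against the others were added after the data had been seen.

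The members and gene lists were chosen with earlier results of these data known. Named genes are the members, genes with Dppa symbols and near copies, protein-coding genes starting within 250 kb, up to 4 called genes with the largest change from each list, and the 5 genes most correlated with each member. Pou5f1, Uhrf1, Dnmt1 and the named markers of cell types lie outside these rules. Proteins and promoters of the members were not analysed here.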

Additional observations from a re-analysis of the deposited data

How the results depend on the processing

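On withdrawal the Dppa5a log2 fold change was negative in all 22 alternatives and passed in 14. Without the replicate block it was -1.47 (adjusted p = 0.16), and with no filter on low counts -1.17 (adjusted p = 0.066). With libraries left out it ranged from -0.91 to -1.63. The call was lost without replicate 2, without replicate 3, and without any single replicate 2 or 3 control library (adjusted p of 0.064 to 0.078). Dppa2 ranged from -0.022 (without the replicate 1 library with LIF2i) to 0.64.

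For CK666, Dppa5a was 0.28 to 0.81 with libraries left out, passing without replicate 1 and without the replicate 1 library with LIF2i, and 0.53 in a fit of the 2 groups alone (adjusted p = 0.02). Dppa4 under CK666 lay close to 0 against an SE of 0.18, so its changes of sign show no change of direction. It was -0.035 without the replicate block, -0.00031 with DESeq2 size factors, -0.00015 with DESeq2, -0.0074 with voom and -0.0089 with the 2 groups alone, and the DESeq2 size factors moved the median of all genes by -0.018. It ranged from -0.20 to 0.22 with libraries left out. For CK666, Dppa2 ranged from -0.51 to 0.28 and Dppa3 from -0.13 to 0.49. Against self-renewal, Dppa5a was -1.08 to -0.34 with libraries left out and -0.64 in DESeq2 (adjusted p = 0.043). Dppa2 ranged from -0.34 to 0.61 and Dppa4 from 0.20 to 0.63.

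Genes called for withdrawal numbered 5967, 3509 without the replicate block, and 3105 to 6533 with libraries left out. For CK666 against self-renewal they numbered 5408, 2966 without the block and 2419 to 6081. For CK666 they numbered 300, and 0 without the replicate block by edgeR (1251 at an unadjusted p under 0.05), 565 with no filter, 1136 by DESeq2, 553 by voom, 42 and 23 on log2 TPM with pseudocounts of 1 and 0.1, 148 with length offsets, 1376 in the 2 groups alone, and 0 to 1746 with libraries left out. The block changed the call of no member but Dppa5a on withdrawal. The cause of these changes was not tested. No scaling moved the median of all genes by more than 0.073 on the log2 scale. Dppa3 rested on 4 to 41 counts in a library.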
